A study of Rattus norvegicus with 3 samples.

Results

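The transcripts described here belong to cholesterol synthesis, its control by sterol-sensing proteins, and fatty acid synthesis, measured in heart muscle cells of fetal Wistar rats. The 40 genes were listed by name, with earlier results of these data known, and 38 of them had at least 1 probe set annotated with that symbol alone, out of 14217 genes measured in that way. Hmgcs1 and Npc1 are not analysed here. Cardiomyocytes were released by enzyme digestion, plated for 48 hours and then held for 24 hours in fresh culture medium (the control), in medium conditioned by skeletal myoblasts, or in medium conditioned by cardiac fibroblasts. Each medium was represented by 1 Affymetrix array, so every difference below is a single unreplicated value without error or test, and an effect of a medium cannot be told apart from an effect of its array or culture. The labels do not say how many fetuses contributed, nor how pure the cells were. The study concerned protection of cardiomyocytes by factors that myoblasts release.

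Cholesterol is built from acetyl-CoA through mevalonate, activated isoprenoids, squalene and lanosterol, with most late steps on the endoplasmic reticulum. When sterols in that membrane are low, the escort protein SCAP carries the SREBP transcription factors to the Golgi, where they are cut and released to the nucleus, and the INSIG proteins hold SCAP back when sterols are plentiful. SREBP encoded by Srebf2 acts mainly on cholesterol genes, while products of Srebf1 act more on the genes of fatty acid synthesis. Oxysterols activate the liver X receptors, which raise sterol export and also Srebf1 itself. Cultured cells take part of their cholesterol and fatty acids from serum lipoproteins in the medium.

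The log2 values are given relative to each probe set's median over the 3 arrays, so the middle array stands at 0 and the absolute level of a gene is unknown. A gene with several probe sets has their mean, and a difference of 1 is 2-fold. Technical spread was read from 42 probe sets for foreign transcripts spiked in during labelling and hybridisation. Several of these probe sets read the same added transcript, so they are not 42 separate measurements. In myoblast medium against control these spike-ins ran from -0.01 to 0.66, with 40 of 42 above 0 and a median of 0.29. In fibroblast medium against control they ran from -0.68 to 0.59 (median 0.09), and from -0.48 to 1.02 for myoblast against fibroblast medium (median 0.21). Whether equal amounts were added is not known. Because levels are unknown, the presence of cardiomyocyte markers could not be checked, only their differences. The 12 cardiomyocyte markers had a median of -0.30 in myoblast medium, between -1.42 (Mb, myoglobin) and 1.43 (Myh7, slow myosin heavy chain), and of -0.65 in fibroblast medium, between -2.30 (Myl7, atrial myosin light chain) and 0.72 (Myh7). Other cell types differed too, most of all in fibroblast medium, where 10 of 12 macrophage markers were at least 2-fold higher (median 2.11, from 0.08 for Cd163 to 5.41 for Adgre1) and 8 of 11 endothelial markers at least 2-fold lower (median -2.60, from -5.65 for Emcn to 0.58 for Flt1). In myoblast medium 1 of 12 macrophage markers was at least 2-fold higher and 0 lower (median -0.49, from -0.94 for Mrc1 to 1.13 for Fcgr2b), and the endothelial list held 4 of 11 genes lower by 2-fold or more (median -0.84, from -1.38 for Emcn to 0.05 for Tek). In RNA from a whole culture, fewer cells of a type and less RNA per cell cannot be told apart, and the part of these markers in the results below was not tested.

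Control was the lowest array for 27 of the 38 members (71.1%), against 23.6% of all genes measured. Arrays were tied for 10.5% of members and 29.6% of all genes. A gene at 0 on all arrays, as 1627 genes were, has no lowest or highest array, which lowers the all-gene shares of orders here and below. In myoblast medium 31 members lay above control and 4 below, where 39% of all genes lay above and 40.2% below. The members' median difference was 0.28, against 0.00 for all genes and the 0.29 of the spike-ins, so the median member differed by no more than the median spike-in. The part of that shift in the results was not tested. At least 2-fold higher were 6 members (15.8%, against 1.35% of all genes), namely Angptl8, Scd, Srebf1, Fdps, Cyp51 and Fads2, and 0 were 2-fold lower (0.844% of all genes). In fibroblast medium 32 members lay above control and 5 below, where 41% of all genes lay above and 43.1% below. The members' median difference there was 0.57, against 0.00 for all genes and 0.09 for the spike-ins. At least 2-fold higher were 4 members (10.5%, against 4.26% of all genes), namely Ch25h, Idi1, Cyp51 and Fdps, and 0 were 2-fold lower (2.6% of all genes). Both counts use the same control array, so the comparisons are not independent. A difference wider than that of any spike-in was found for 11 members in myoblast medium, all higher (where 3.19% of all genes were higher and 2.29% lower by as much), and for 15 in fibroblast medium, all higher (7.46% and 5.36%). With the limit at 1.5-fold, 11 members were higher and 0 lower in myoblast medium (3.77% and 2.86% of all genes), and 18 were higher and 0 lower in fibroblast medium (9.09% and 6.97%). At 3-fold, 2 were higher in myoblast medium, Angptl8 and Scd (0.38% of all genes), and 2 in fibroblast medium, Ch25h and Idi1 (1.84%). Ch25h enters the fibroblast medium counts with its blank cells in control read as 0, so its size is uncertain.

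**Figure D1:**
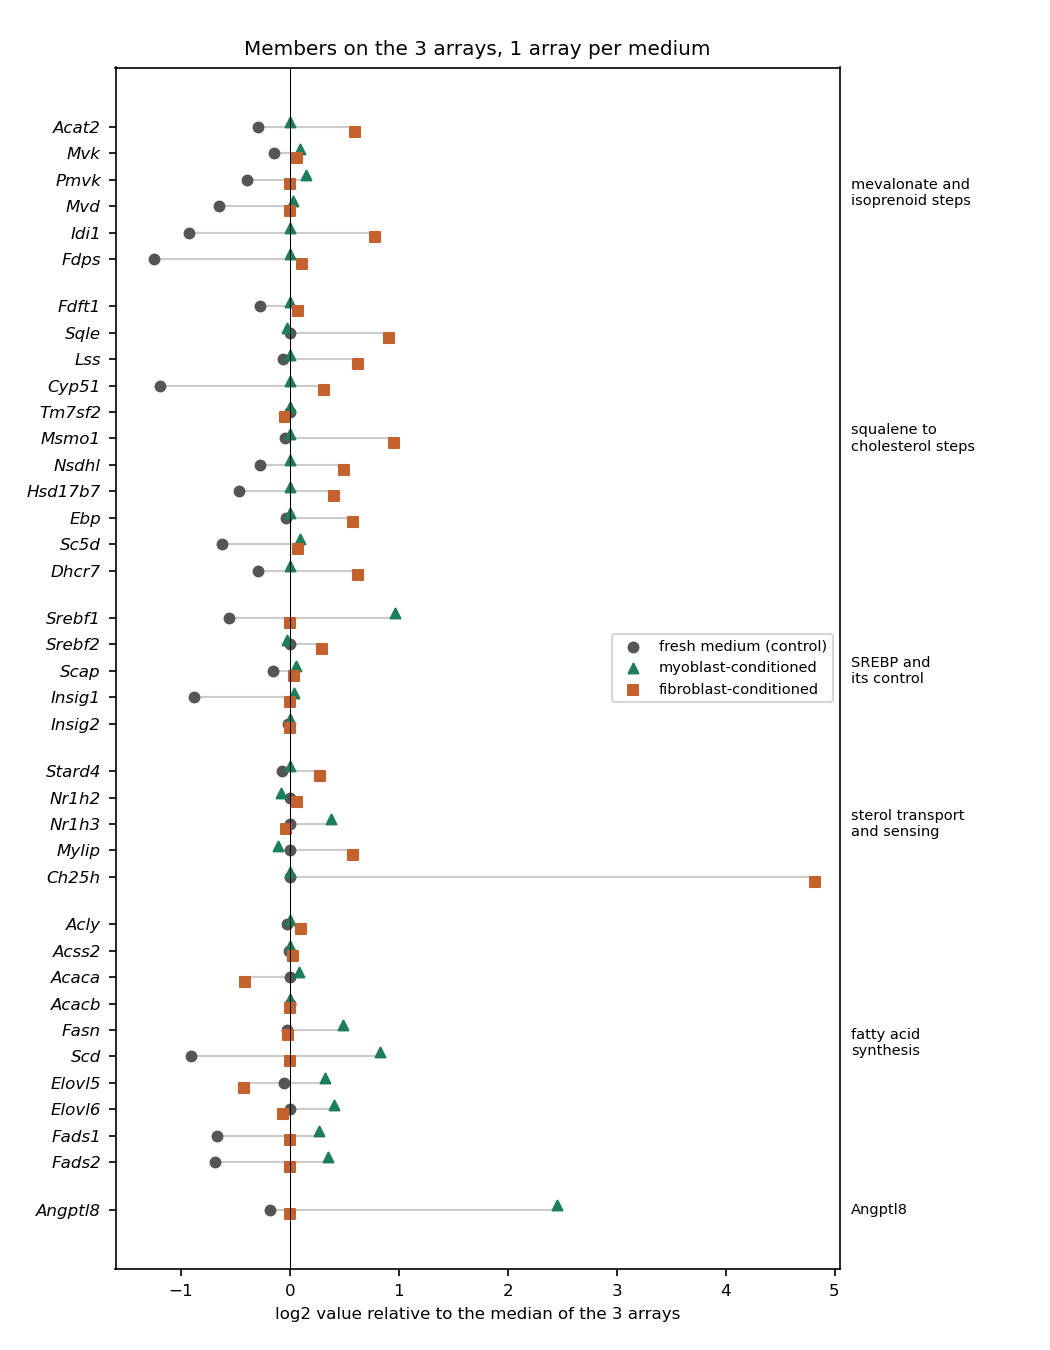
Log2 value of each of the 38 measured members on the control array (circles), the myoblast medium array (triangles) and the fibroblast medium array (squares), relative to the gene's median over the arrays and grouped by role, with a grey line over the range. Control is the lowest array for 27 members, and the widest ranges are those of Ch25h, high only on the fibroblast medium array, and Angptl8, high on the myoblast medium array.

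The first steps of the pathway make the activated isoprenoids. All 6 measured genes of these steps were lowest on the control array. Their median difference was 0.61 in myoblast medium and 0.77 in fibroblast medium. Fdps, whose enzyme joins isoprene units into farnesyl diphosphate, the branch point to sterols and prenylated proteins, stood at -1.25 in control, 0.00 in myoblast medium and 0.11 in fibroblast medium. It was therefore 2.38-fold higher in myoblast and 2.57-fold higher in fibroblast medium than in control, while the conditioned media differed by only 0.11. Idi1, which encodes isopentenyl diphosphate isomerase, stood at -0.93 in control, 0.00 in myoblast medium and 0.79 in fibroblast medium. It was 1.90-fold and 3.28-fold higher than in control, with its 2 probe sets at 0.92 and 0.94 in the first comparison and at 1.78 and 1.65 in the second. Mvd, the mevalonate diphosphate decarboxylase gene, was at -0.65, 0.03 and 0.00 in control, myoblast and fibroblast medium, which separates control from both conditioned media by nearly the same amount.

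The other genes of the early steps had smaller ranges. Acat2, which encodes the cytosolic enzyme that condenses acetyl-CoA, was at -0.30 in control, 0.00 in myoblast medium and 0.60 in fibroblast medium. Pmvk, the phosphomevalonate kinase gene, was higher by 0.54 in myoblast medium and by 0.39 in fibroblast medium. Mvk, the mevalonate kinase gene, was higher by 0.24 and 0.21, and its 3 probe sets ran from 0.00 to 0.40 in fibroblast medium. Pmvk and Mvk stayed inside the spread of the spike-ins in both comparisons.

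The steps from squalene to cholesterol separated the media more clearly. Of 11 measured genes, 8 in fibroblast medium and 2 in myoblast medium (Cyp51 and Sc5d) exceeded the largest spike-in difference in size. All of these were higher than control, where 7.46% and 3.19% of all genes were higher by as much. In fibroblast medium that largest spike-in difference was negative, at -0.68, and the highest was 0.59. Ebp, higher by 0.61 there, lay between these sizes and is not counted. The medians of the 11 genes were 0.77 in fibroblast medium and 0.27 in myoblast medium. Cyp51, which encodes the lanosterol demethylase, stood at -1.19 in control, 0.00 in myoblast medium and 0.31 in fibroblast medium. It was 2.29-fold and 2.84-fold higher than in control, and its 2 probe sets were close together, at 1.15 and 1.24 in the first comparison and at 1.58 and 1.43 in the second. Sc5d, the lathosterol desaturase gene, was at -0.63, 0.09 and 0.07, again with control apart from both media. Of its 3 probe sets, 1 gave only 0.32 and 0.04 against control and the others 0.84 to 0.99 in myoblast medium and 1.02 to 1.04 in fibroblast medium.

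A second pattern in this group was a high value on the fibroblast medium array alone. Sqle, whose enzyme makes squalene epoxide and is a rate-controlling step, was at 0.00 in control, -0.02 in myoblast medium and 0.91 in fibroblast medium. Msmo1, which encodes the sterol methyl oxidase, was at -0.04, 0.00 and 0.96, or 0.997 above control in fibroblast medium, just under 2-fold. Lss, the lanosterol synthase gene, was at -0.07, 0.00 and 0.63, with its probe sets at 0.96 and 0.43 against control in fibroblast medium. Ebp, the sterol isomerase gene, was at -0.03, 0.00 and 0.58. In these 4 genes the myoblast medium and control arrays were within 0.07 of each other. They were picked after the values were seen, as sterol genes within 0.1 of control in myoblast medium and at least 1.5-fold higher in fibroblast medium. Lss met the limit of 0.1 only as the mean of its probe sets. Its probe set with 2 values gave 0.13 in myoblast medium against control, and the other had a value in fibroblast medium only.

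The remaining genes lay between these patterns. Dhcr7, whose enzyme completes cholesterol in one branch of the pathway, was at -0.29 in control, 0.00 in myoblast medium and 0.62 in fibroblast medium. Hsd17b7, a sterol ketoreductase gene, was higher by 0.46 and 0.87, and Nsdhl, which encodes a sterol decarboxylating dehydrogenase, by 0.27 and 0.77. The 2 probe sets of Nsdhl differed in size, at 0.54 and 0.00 in myoblast medium and at 1.17 and 0.37 in fibroblast medium. Fdft1, the squalene synthase gene, was higher by 0.28 and 0.36. Tm7sf2, a sterol reductase gene, had a value on 1 array only and was 0.05 lower in fibroblast medium.

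Over all 17 measured synthesis steps, control was lowest for 15 (88.2%, against 23.6% of all genes), the exceptions being Sqle and Tm7sf2. Fibroblast medium was highest for 12 of 17 (70.6%, against 30.9%). An order counts differences of any size, and for Ebp and Msmo1 the control and myoblast values were nearly equal.

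**Figure D2:**
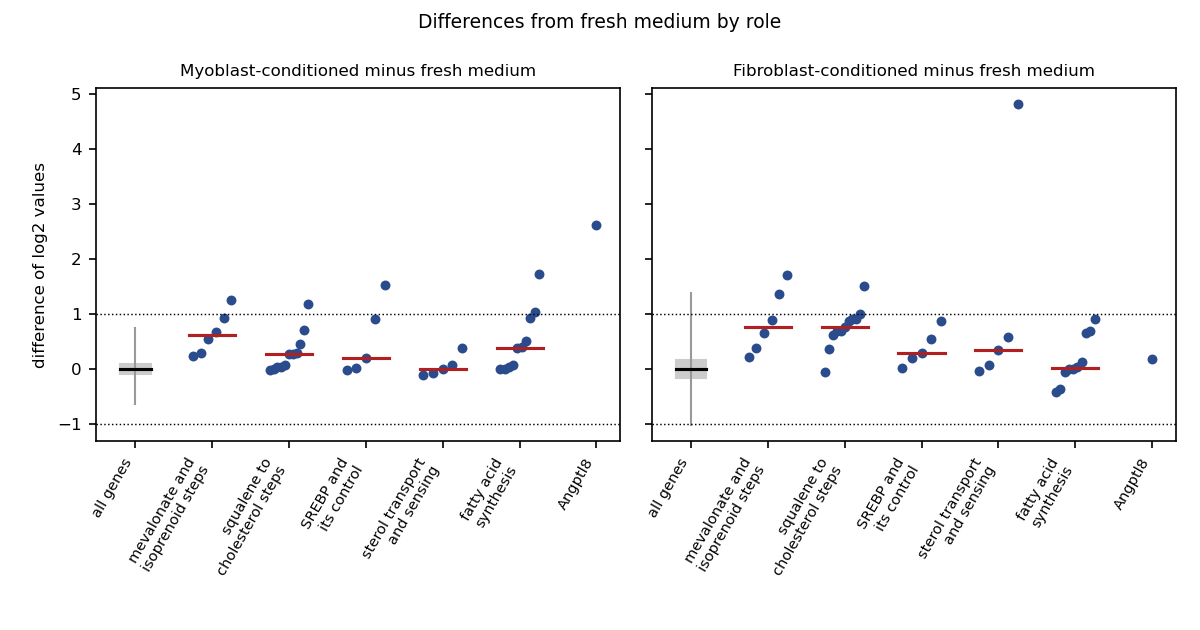
Difference of log2 values from control in myoblast medium (left) and fibroblast medium (right), with 1 point per member, a red line at each group's median and dotted lines at 2-fold. For all genes the box spans the quartiles, the grey line the central 95% and the black line the median at 0, and the median of squalene to cholesterol steps is 0.27 on the left and 0.77 on the right.

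The 250 bases before the members' annotated starts were searched for letters of known SREBP-related elements. RefSeq start windows of build GRCr8 were matched by gene ID for 31 of the 38 measured members. The motifs, read on both strands, were TCACNCCAC (a spelling of the sterol regulatory element), CCAAT (bound by NF-Y) and GGGCGG (the GC box, bound by Sp1), both known partners of SREBP, and the E-box CACGTG, which SREBP and other factors can bind. CCAAT stood in the windows of 11 of 14 measured sterol synthesis genes (78.6%), against 36.3% of 11701 genes on the array with such windows and 36.1% of all 27457 genes with windows. GGGCGG stood in 12 of 14 (85.7%), against 55.3% and 33.5%, and the median GC content was 60.8% in these windows, 58.8% in those of array genes and 51.2% in all. Both motifs together were in 9 of 14 (64.3%), against 19.5% of array genes and 11.5% of all. In the windows of 7 fatty acid synthesis genes, 5 held CCAAT (71.4%), 4 held GGGCGG (57.1%) and 3 held both (42.9%), and over all 31 members the counts were 21 (67.7%), 22 (71%) and 16 (51.6%). TCACNCCAC was in 0 of the 31 members' windows and in 1.06% of array genes (1.09% of all), and variant spellings of the element were not searched. CACGTG was in 1 of 14 sterol genes (7.14%), 1 of 7 fatty acid genes (14.3%) and 4 of 31 members (12.9%), against 8.22% of array genes and 6.18% of all. A match is a string of letters and not a measured site, and in 0 members' windows did matches of different motifs overlap.

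Shown for the sterol genes at least 2-fold higher than control in fibroblast medium are the windows of Idi1 (chr17:66547525-66547774, minus strand), Fdps (chr2:176804817-176805066, minus strand) and Cyp51 (chr4:30991443-30991692, plus strand). Each ends at the base before the annotated start, and capitals mark CCAAT and GGGCGG on either strand (the reverse strand reads ATTGG or CCGCCC). They were chosen after the values were seen.
Idi1: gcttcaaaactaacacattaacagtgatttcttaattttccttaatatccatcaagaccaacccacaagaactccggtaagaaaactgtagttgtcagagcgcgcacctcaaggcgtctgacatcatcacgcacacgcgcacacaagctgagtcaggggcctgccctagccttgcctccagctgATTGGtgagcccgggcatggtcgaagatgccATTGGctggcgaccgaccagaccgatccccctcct
Fdps: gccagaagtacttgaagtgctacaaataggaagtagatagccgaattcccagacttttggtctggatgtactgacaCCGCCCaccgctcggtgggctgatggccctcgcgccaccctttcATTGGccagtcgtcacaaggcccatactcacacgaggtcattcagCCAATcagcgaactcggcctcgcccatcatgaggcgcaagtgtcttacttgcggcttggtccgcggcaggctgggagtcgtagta
Cyp51: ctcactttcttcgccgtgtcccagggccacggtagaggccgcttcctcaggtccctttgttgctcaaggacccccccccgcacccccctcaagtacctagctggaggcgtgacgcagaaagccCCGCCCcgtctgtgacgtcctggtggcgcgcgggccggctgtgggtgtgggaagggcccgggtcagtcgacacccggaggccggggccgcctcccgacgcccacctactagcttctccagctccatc
Fdps has a CCAAT match on each strand and 1 GC box, Idi1 has 2 CCAAT matches and no GC box, and Cyp51 has 1 GC box and no CCAAT match.

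**Figure D3:**
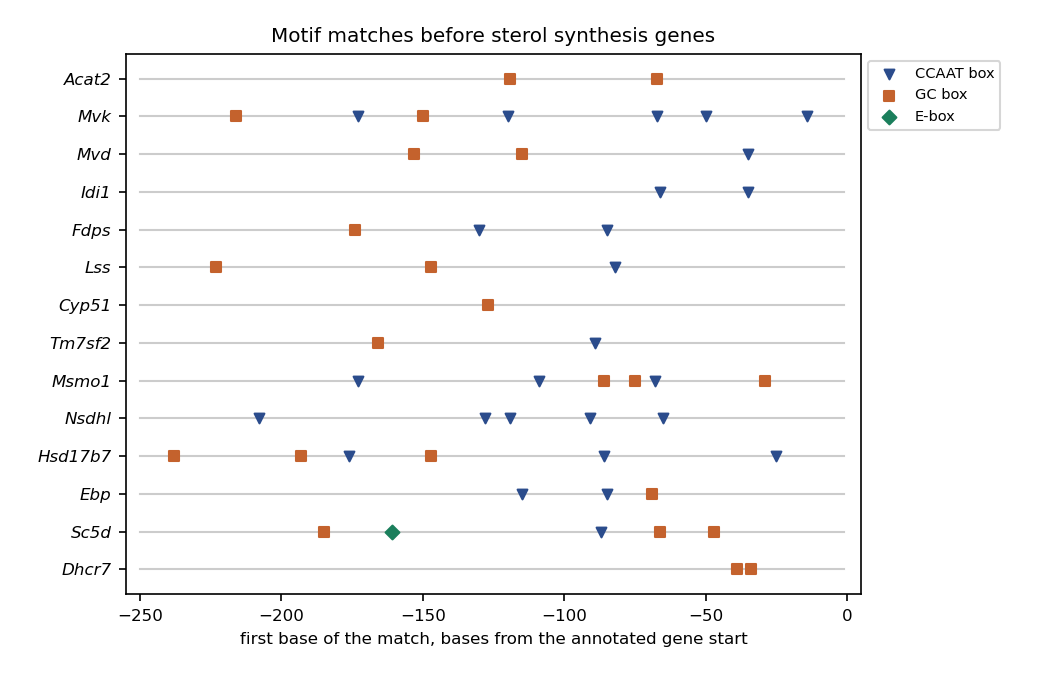
Position of each CCAAT box, GC box and E-box match in the 250 bases before the annotated start of the 14 measured sterol synthesis genes with a window, given as the first base of the match in bases from the start. CCAAT matches appear in 11 of the 14 genes and GC boxes in 12, and only Sc5d has an E-box.

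Among the regulators, Srebf1 differed most. It was at -0.55 in control, 0.97 in myoblast medium and 0.00 in fibroblast medium. It was 2.87-fold higher in myoblast than in control medium, the 56th highest difference of 14217 genes, and 1.47-fold higher in fibroblast medium. Its 2 probe sets had the same sign and unequal size, at 2.03 and 1.01 in myoblast medium and at 1.0 and 0.11 in fibroblast medium. Srebf1 is known to be transcribed from alternative starts, and RefSeq gives 2 start windows, so both are shown, the upstream one at chr10:45529165-45529414 and the downstream one at chr10:45519011-45519260, minus strand, with capitals as above. Which start a probe set reports is not given in the sources used here.
Srebf1 upstream: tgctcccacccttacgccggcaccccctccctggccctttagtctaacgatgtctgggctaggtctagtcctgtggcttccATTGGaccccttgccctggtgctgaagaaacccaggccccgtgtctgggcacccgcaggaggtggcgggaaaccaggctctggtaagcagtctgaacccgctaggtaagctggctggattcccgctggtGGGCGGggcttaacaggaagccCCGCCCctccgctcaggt
Srebf1 downstream: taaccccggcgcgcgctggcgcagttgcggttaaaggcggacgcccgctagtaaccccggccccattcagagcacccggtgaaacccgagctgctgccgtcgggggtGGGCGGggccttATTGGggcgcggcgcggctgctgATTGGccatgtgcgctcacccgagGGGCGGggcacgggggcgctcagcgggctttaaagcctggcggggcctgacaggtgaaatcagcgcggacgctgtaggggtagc
The upstream window holds 1 CCAAT match and 2 GC boxes, and the downstream window holds 2 of each.

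Srebf2, the regulator of cholesterol genes, was at 0.00 in control, -0.02 in myoblast medium and 0.30 in fibroblast medium as the mean of its probe sets. One of its 2 probe sets had no value on any array and was read as 0, and the other gave 0.59 in fibroblast medium. Insig1, itself a target of SREBP whose protein retains SCAP, was at -0.88 in control, 0.04 in myoblast medium and 0.00 in fibroblast medium, or 1.89-fold and 1.84-fold higher than in control. Insig2, its paralogue, was at -0.01 in control and 0.00 in both conditioned media. Of the 2 probe sets of Insig2, 1 had no value on any array and the other had a value in control only (-0.03). Scap was higher by 0.20 and 0.19, and its probe sets had opposite signs in fibroblast medium, at -0.15 and 0.53.

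Genes of sterol transport and sensing did not share one direction. Ch25h, whose enzyme makes an oxysterol that restrains SREBP processing and is known to be induced in activated macrophages, had no value in control or myoblast medium, both read as 0, and stood at 4.82 in fibroblast medium. Its only probe set had that 1 value, so the size of the difference rests on blank cells whose signal is unknown, and no fold is given. It was high on the same array as the macrophage markers given above. Mylip, a liver X receptor target whose product degrades lipoprotein receptors, was at 0.00, -0.11 and 0.58 in control, myoblast and fibroblast medium. Stard4, a sterol carrier gene, was higher by 0.07 in myoblast medium and by 0.35 in fibroblast medium. Of its 3 probe sets, 1 had no value on any array and was read as 0, and the others gave 0.76 and 0.28 in fibroblast medium. Nr1h3, the gene of liver X receptor alpha, was higher by 0.38 in myoblast medium and was at -0.03 in fibroblast medium, and Nr1h2, the gene of the beta form, was at -0.08 and 0.07. By the gene means of these 5 measured genes, Ch25h alone exceeded the largest spike-in difference in size in a comparison with control. The Stard4 probe set at 0.76 in fibroblast medium also lay past the largest spike-in difference there, 0.68 in size.

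In fatty acid synthesis the largest values lay at desaturation, and mostly in myoblast medium. Scd, which encodes the stearoyl-CoA desaturase, was at -0.90 in control, 0.83 in myoblast medium and 0.00 in fibroblast medium. It was 3.32-fold higher in myoblast medium, the 40th highest of all genes, and 1.87-fold higher in fibroblast medium. Fads1 and Fads2, neighbouring genes for the desaturases of polyunsaturated fatty acids, shared this order. Fads2 was at -0.69, 0.35 and 0.00 and was 2.06-fold and 1.61-fold higher than in control, and Fads1 was at -0.66, 0.27 and 0.00 and was 1.91-fold and 1.58-fold higher.

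Chain-building genes differed less. Fasn, the fatty acid synthase gene, was at -0.02 in control, 0.49 in myoblast medium and -0.02 in fibroblast medium, and its 2 probe sets both gave 0.51 in myoblast medium. The elongase gene Elovl6 was at 0.00, 0.40 and -0.06, with its probe sets at 0.63 and 0.18 in myoblast medium. Elovl5, the elongase of polyunsaturated chains, was at -0.05, 0.32 and -0.42, with its probe sets at 0.11 and -0.84 against control in fibroblast medium. Acaca, which encodes the acetyl-CoA carboxylase that commits carbon to fatty acids, was at 0.00, 0.08 and -0.41, and most of the last value came from 1 of 2 probe sets, at -0.76. The enzymes that supply acetyl-CoA showed almost nothing, with Acly at -0.03, 0.00 and 0.11 and Acss2 between 0.00 and 0.03, and Acacb had no value on any array. Over the 10 genes the median was 0.39 in myoblast medium and 0.02 in fibroblast medium.

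Angptl8, which encodes a secreted inhibitor of lipoprotein lipase that feeding and insulin are known to raise in liver and fat, stood at -0.18 in control, 2.45 in myoblast medium and 0.00 in fibroblast medium. It was 6.19-fold higher in myoblast medium, the 7th highest of all genes, and 1.13-fold higher in fibroblast medium, and it had a single probe set. Angptl8 (chr8:28652555-28654581, GRCr8) lies inside the span of Dock6 (chr8:28618523-28670741), and Dock6 was at -0.12 in myoblast medium against control. The 8 adipocyte markers measured had a median of -0.02 in that comparison and 0.00 in fibroblast medium, with Fabp4 lowest at -1.83 and -1.36 and Cidec (0.01) and Cfd (0.45) highest.

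The conditioned media were then set against each other, where most sterol genes and most fatty acid genes had opposite signs. Of 17 sterol synthesis genes, 12 were lower in myoblast than in fibroblast medium, with a median of -0.41, while 7 of 10 fatty acid synthesis genes were higher, with a median of 0.41. No gene of either group reached 2-fold in this comparison, and in size all of them lay within 1.02, the largest difference of a spike-in. That spike-in was on the higher side, and the lowest spike-in was at -0.48. The lowest genes were Msmo1 at -0.96, Sqle at -0.93 and Idi1 at -0.79. These and further sterol genes, up to Nsdhl at -0.50, lay below the lowest spike-in. The highest genes were Scd at 0.83 and Elovl5 at 0.74, while Srebf1 was at 0.97, all below the highest spike-in. Over all genes 44.9% lay above 0 and 39.3% below, with a median of 0.00. Among all 38 members 1 was at least 2-fold higher in myoblast medium (Angptl8, 5.46-fold, where 2.12% of all genes were) and 1 at least 2-fold lower (Ch25h, where 3.94% were). At 1.5-fold, 4 members were higher (6.65% of all genes) and 8 lower (8.34%). Myoblast medium was the highest of the 3 arrays for 7 of 10 fatty acid synthesis genes (70%, against 23.7% of all genes) and for 4 of 17 sterol synthesis genes.

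**Figure D4:**
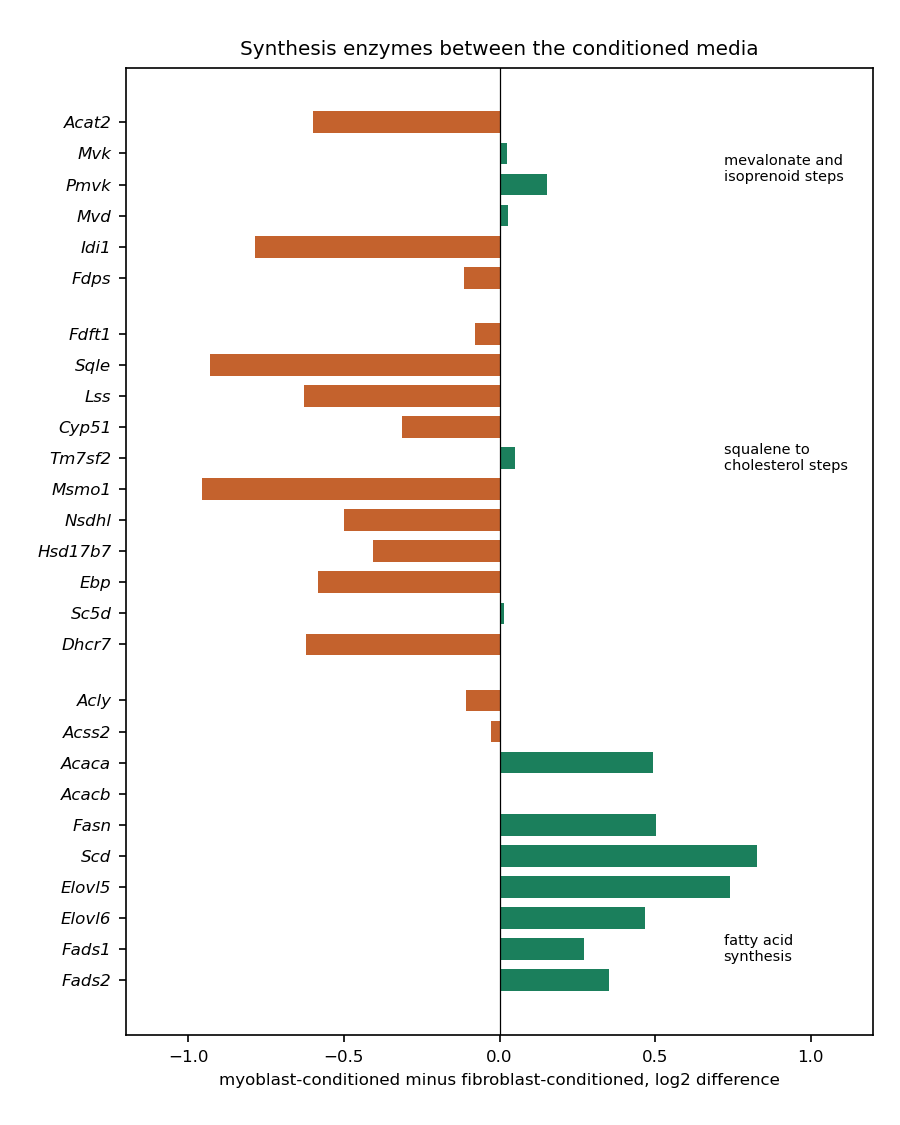
Difference of log2 values, myoblast medium minus fibroblast medium, for the 27 measured synthesis enzymes, with bars to the left (orange) where fibroblast medium was higher and to the right (green) where myoblast medium was higher. Of the 17 sterol genes 12 point left and of the 10 fatty acid genes 7 point right, and no bar reaches 1, which is 2-fold.

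Other genes of these pathways, from 4 lists of which 104 of 125 entries were measured, were read in the same way. In myoblast medium 64 lay above control and 31 below, with a median of 0.10; past 2-fold were 4 on the higher side (3.85%, against 1.35% of all genes) and 1 on the lower (0.962%, against 0.844%). In fibroblast medium 60 lay above and 39 below, with a median of 0.07; past 2-fold were 6 on the higher side (5.77%, against 4.26% of all genes) and 3 on the lower (2.88%, against 2.6%). Among 22 genes of sterol uptake, export and storage (medians 0.10 and 0.13), the receptor gene Lrp8 was at -1.14 in control and at 0.00 in both conditioned media. A value of 0.00 on both arrays is how blank cells read as 0 appear. For the single probe set of Lrp8 a tie and missing values cannot be told apart, yet Lrp8 is counted past 2-fold in both media. Vldlr, the very low density lipoprotein receptor gene, was higher by 0.74 and 1.45. Scarb1, a lipoprotein scavenger receptor gene, was at -0.52 and 0.66 against control. Of 19 other regulators of sterol synthesis (medians 0.07 in both) none was 2-fold apart in any comparison. The 18 other sterol and isoprenoid genes had medians of 0.00 in both, with Acat1, which encodes a mitochondrial thiolase, at -0.35 and -1.30 and the sterol hydroxylase gene Cyp27a1 at 0.66 and -0.58.

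For 45 other fatty acid and triglyceride genes, not all of them genes of synthesis, the medians were 0.14 and 0.07. In myoblast medium 3 were at least 2-fold higher (6.67%, against 1.35% of all genes) and 1 lower (2.22%, against 0.844%). Acss1, which encodes a mitochondrial acetyl-CoA synthetase, was at -0.11 in control, 1.55 in myoblast medium and 0.00 in fibroblast medium, or 3.17-fold higher in myoblast medium. Fads3, a neighbour of Fads1 and Fads2, was higher by 1.37 and 1.23, and the acyl-CoA synthetase gene Acsl4 by 1.11 and 0.85. In fibroblast medium Slc25a1, the gene of the mitochondrial citrate carrier, was higher by 1.37 and Me1, the malic enzyme gene that supplies NADPH, by 1.21, against 0.24 and 0.29 in myoblast medium. Acsl5 was higher by 0.73 and 1.34, while Acsl1 was at 0.02 and -1.23 and Acss3 at -1.29 and -1.39. Olr1, a scavenger receptor gene, was at -0.53 and 0.78.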

How the data were processed

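The 3 arrays, 1 per medium, were hybridised with biotin-labelled total RNA. The submitters' processing notes name RMA, with no software or settings. The deposited log2 values of 31099 probe sets are centred on each probe set's median over the arrays, as the values show: 17117 had 2 values, 8002 had 1, 5980 had none and 0 had 3. Blank cells were read as 0, the median array; where 2 arrays are blank, a tie and a missing value cannot be told apart. That the base is 2 was inferred from RMA.

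The platform annotation paired 20832 probe sets with 1 symbol and 436 with several, which name no gene here, and 9831 were unnamed. Symbols were updated through Entrez IDs with RefSeq (GRCr8), which matched 20764. Gene values are means of probe sets, for 14217 genes, 1627 of them at 0 on all arrays. Genes with a log2 difference of at least 1 were counted, and no test was possible with 1 array per medium. Spike-ins were 18 hybridisation and 24 poly-A probe sets. The members and lists were chosen with earlier results of these data known. Every measured member is named, with genes of the pathway lists past 2-fold in any comparison and the highest and lowest markers of the lists described. Also measured were fibroblast, smooth muscle, skeletal myoblast, erythroid and neutrophil markers. Promoter windows are RefSeq's, 250 bases before the start. The counting and motif steps were tested on simulated data. Alternatives were the median over probe sets, the widest-range probe set and leaving out probe sets named with the suffix s, x or a. Others were only probe sets with 2 values, centring of arrays, and thresholds of 1.5-fold and 3-fold. Python 3.11.15, NumPy 2.4.6, pandas 2.3.3 and Matplotlib 3.10.9 were used.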

Additional observations from a re-analysis of the deposited data

How the results depend on the processing

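No paired analysis was possible because each medium had 1 array. Of 147 recomputed counts and medians, 136 stayed within 1.5 times the count or within 1 SD of the spike-ins' differences. Members at least 2-fold higher in myoblast medium than in control numbered 6, and 11 at 1.5-fold (3.77% of all genes) and 2 at 3-fold. Those higher in fibroblast medium numbered 4, with 18 at 1.5-fold (9.09%), 2 at 3-fold and 7 with the widest-range probe set. When probe sets without 2 values were left out, among them that of Ch25h, 3 of 34 members were higher in fibroblast medium. Between the conditioned media, 1 member was higher in myoblast medium, with 4 at 1.5-fold and 3 with the widest-range probe set, and 1 was lower, with 8 at 1.5-fold and 0 when probe sets without 2 values were left out, among them that of Ch25h. The median of SREBP and its control in myoblast medium was 0.20, but 0.56 when probe sets without 2 values were left out, which leaves 4 genes. The median of the sterol synthesis steps in myoblast medium was 0.29, and 0.47 with the widest-range probe set. Among single members 10 of 558 recomputed differences moved by more than 1 SD, each of them with the widest-range probe set, and 0 changed sign among those past 2-fold. Signal over background is unknown in centred values, so a value near 0 may come from a gene that was not detected.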

Other observations

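Markers of other cells the cultures could hold were also read. Smooth muscle markers had a median of 0.55 in myoblast medium and 0.53 in fibroblast medium, with 3 of 7 at least 2-fold higher in each, Cnn1 (3.02) and Tagln (2.75) highest and Smtn lowest at -0.43 and -0.41. Fibroblast markers had medians of -0.10 and 0.09, with Pdgfra lowest at -1.42 and -1.48 and Ddr2 (0.69) and Thy1 (1.69) highest. Skeletal myoblast markers had medians of -0.05 and -0.12, with 0 of 6 past 2-fold, Mymk lowest at -0.19 and -0.28, and Des (0.55) and Myod1 (-0.04) highest. Erythroid markers had medians of -0.07 and -0.11, with Hbb lowest at -1.0 and -4.32 and Epb42 highest at 0.00. Neutrophil markers had medians of 0.00 and -0.01, with Itgam at -0.05 and 1.56 and S100a9 at 0.03 and -0.23.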
